A study of Homo sapiens with 12 samples.

Results

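The genes described here were CXCL10, CXCL11, CXCL12, CXCL14 and CXCL16, 5 chemokines of the CXC family chosen by their symbols from the 57500 genes of the count table. All 5 were found, each as 1 gene identifier, and all 5 passed the filter on low counts. CXCL12 was above the minimum of that filter (0.423 CPM) in all 12 libraries and CXCL16 in 11, with Prol the low group. CXCL10 and CXCL11 were above it in 6 and CXCL14 in 7, so these 3 passed only through the groups in which they were high, and counts of members called are a description. CXC chemokines are small secreted proteins that steer leukocytes through G protein-coupled receptors. CXCL10 and CXCL11 are classical interferon-inducible ligands of CXCR3 that recruit activated T cells and natural killer cells, and inflammatory stimuli acting through NF-kB also induce CXCL10. CXCL12, made by fibroblasts and other stromal cells in many tissues, signals through CXCR4 and is also bound by the scavenging receptor ACKR3. CXCL14 is expressed in many resting epithelial and stromal tissues, and CXCL16 is made as a membrane-anchored ligand of CXCR6 that proteases can shed.

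RNA was sequenced from MRC5 cells, an established line of human embryonic lung fibroblasts, in 4 groups of 3 libraries. Prol denotes proliferating cells, and Sen(IR) denotes cells made senescent by X-ray irradiation, at 20 Gy per the methods. The other two groups were irradiated cells given a small molecule from the day after irradiation, kept in the medium for 12 days. Sen(IR)+UK5099 received an inhibitor of the mitochondrial pyruvate carrier at 100 μM, and Sen(IR)+CTPI2 received an inhibitor of the mitochondrial citrate carrier SLC25A1, for which the methods list a lower and a higher dose, both below that of UK5099, without naming the one that was sequenced. Both compounds were given only to irradiated cells, so their effect on proliferating cells was not measured here, and all groups came from 1 cell line. The labels number the libraries 1 to 3 within each group but do not say whether they came from separate cultures. The figure legends of the study call the RNA-seq replicates independent experiments or conditions, without saying how they were cultured, so the p-values measure the spread between these libraries.

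Each library held between 20597736 and 28245693 counts. The labelled cell type held: all 10 fibroblast markers were detected in every group, with summed levels of 20693 to 21279 CPM in Sen(IR) (CPM, counts per 1000000 of the TMM-scaled library size). The same sum was 10908 to 11400 CPM in Sen(IR)+UK5099, 18265 to 20053 CPM in Sen(IR)+CTPI2 and 21364 to 25402 CPM in Prol. The 4 epithelial markers summed to at most 2.23 CPM and the 3 endothelial markers to at most 1.36 CPM in any library. The 6 leukocyte markers summed to at most 5.12 CPM, nearly all of it CD14, whose mean was 0.192 CPM in Prol, 3.32 CPM in Sen(IR), 2.57 CPM in Sen(IR)+UK5099 and 4.28 CPM in Sen(IR)+CTPI2. The part that these marker levels played in the chemokine results was not tested. CDKN1A, the cell-cycle inhibitor p21, averaged 315 CPM in Prol and between 1055 and 1098 CPM in the 3 irradiated groups. MKI67, LMNB1 and CCNA2, checked beside it, were lower in Sen(IR) than in Prol (edgeR log2 fold changes -4.42, -4.35 and -4.02). With UK5099 they were lower again than in Sen(IR), at -3.54, -1.71 and -0.76. With CTPI2 none of them was called against Sen(IR). The part of these changes in the chemokine results was not tested either. In bulk RNA, fewer expressing cells and less RNA per cell cannot be told apart.

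All 5 genes lie on the reverse strand in GENCODE v44 (GRCh38). CXCL10 (ENSG00000169245) is at chr4:76021118-76023497 and CXCL11 (ENSG00000169248) at chr4:76033682-76041415, with 10184 bases between them. CXCL12 (ENSG00000107562) is at chr10:44370165-44386493, CXCL14 (ENSG00000145824) at chr5:135570679-135579279 and CXCL16 (ENSG00000161921) at chr17:4733533-4739928. The methods say that counting was by strand if the library kit was strand-specific, without saying whether it was. Of the exonic bases of CXCL14, 5.47% overlapped genes on the opposite strand (SLC25A48 and a second gene), and of those of CXCL16, 6.16% overlapped MED11 and ZMYND15, so without strand reads there cannot be assigned with certainty. CXCL10, CXCL11 and CXCL12 shared no exonic bases with another gene.

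The upstream sequences of CXCL10 and CXCL11, the neighbours that moved together across the groups, are shown beside that of CXCL12, whose levels fell in another order. Each run is the 250 bases before the RefSeq start of the gene (GRCh38.p14), read 5′ to 3′ on the strand of the gene, from chr4:76023498-76023747 for CXCL10, chr4:76036071-76036320 for CXCL11 and chr10:44385098-44385347 for CXCL12. The CXCL10 window adjoins the GENCODE span of its gene. The CXCL11 and CXCL12 windows lie inside the GENCODE spans given above, which reach further upstream than the RefSeq starts used here. Of the 5 genes, 4 had an entry. Capitals mark matches on either strand to an interferon-stimulated response element type motif (GAAANNGAA), a gamma-activated site (TTCNNNGAA), an AP-1 site (TGANTCA) or the NF-kB consensus.
CXCL10: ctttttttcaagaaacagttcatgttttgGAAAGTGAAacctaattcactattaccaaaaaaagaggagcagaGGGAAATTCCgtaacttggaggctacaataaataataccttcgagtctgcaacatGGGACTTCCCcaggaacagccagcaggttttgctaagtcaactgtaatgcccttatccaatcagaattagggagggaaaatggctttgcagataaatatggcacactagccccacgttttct
CXCL11: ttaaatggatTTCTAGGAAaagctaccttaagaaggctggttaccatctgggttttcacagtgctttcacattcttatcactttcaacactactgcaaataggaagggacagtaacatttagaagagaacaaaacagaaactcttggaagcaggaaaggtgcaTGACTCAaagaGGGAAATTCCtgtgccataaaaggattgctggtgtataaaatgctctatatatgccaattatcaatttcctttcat
CXCL12: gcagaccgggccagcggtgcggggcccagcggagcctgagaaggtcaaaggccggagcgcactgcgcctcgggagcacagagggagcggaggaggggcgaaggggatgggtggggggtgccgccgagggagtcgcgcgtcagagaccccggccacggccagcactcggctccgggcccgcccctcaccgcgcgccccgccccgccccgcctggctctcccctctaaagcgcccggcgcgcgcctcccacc
In the CXCL10 window the capitals are, from left to right, an interferon response match from -221 to -213 and NF-kB matches from -177 to -168 and from -122 to -113, counted back from the start. In the CXCL11 window they are a gamma-activated site match from -240 to -232, an AP-1 match from -87 to -81 and an NF-kB match from -76 to -67. The left NF-kB match of CXCL10 and that of CXCL11 have the same 10 letters. No match was found in the CXCL12 window, and the CXCL14 window, which also lies inside the GENCODE span of its gene, held 1 AP-1 match, from -92 to -86. The matches of different motifs did not overlap in these windows. Over the 35116 RefSeq promoter windows of the same length, 6.88% held the interferon response motif, 6.57% the gamma-activated site, 6.57% the AP-1 site and 5.21% the NF-kB consensus. A match is a string of letters and not evidence of binding, and its absence says nothing of a factor.

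CXCL10 was the most abundant of the 5 transcripts in Sen(IR) and in Sen(IR)+CTPI2, but not in Prol or Sen(IR)+UK5099, per kilobase of exon. Its level was 0.426, 0.215 and 0.0744 CPM in the Prol libraries (10, 5 and 2 counts) and 126, 119 and 128 CPM in the Sen(IR) libraries. It was 0.331, 0.223 and 0.116 CPM with UK5099 (8, 6 and 3 counts) and 82.3, 64.5 and 82.2 CPM with CTPI2. The Prol and UK5099 libraries overlapped near zero, and every CTPI2 library lay below every Sen(IR) library yet far above the other two groups.

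CXCL11, the second interferon-inducible ligand, followed the same order at a lower level. It had 0, 0 and 1 counts in Prol and 2, 0 and 0 counts with UK5099. In Sen(IR) it reached 2.76, 2.80 and 2.80 CPM (62, 59 and 57 counts), and with CTPI2 it reached 1.93, 1.57 and 2.34 CPM (44, 38 and 54 counts). Both low groups were at or under the 3 counts per library taken as the detection floor, and no CTPI2 library reached the Sen(IR) range. Per kilobase of exon, the CXCL10 level was 64.4 to 69.5 times that of CXCL11 in the Sen(IR) libraries and 53.3 to 64.6 times in the CTPI2 libraries, the lowest Sen(IR) ratio lying just under the highest CTPI2 ratio.

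**Figure D1:**
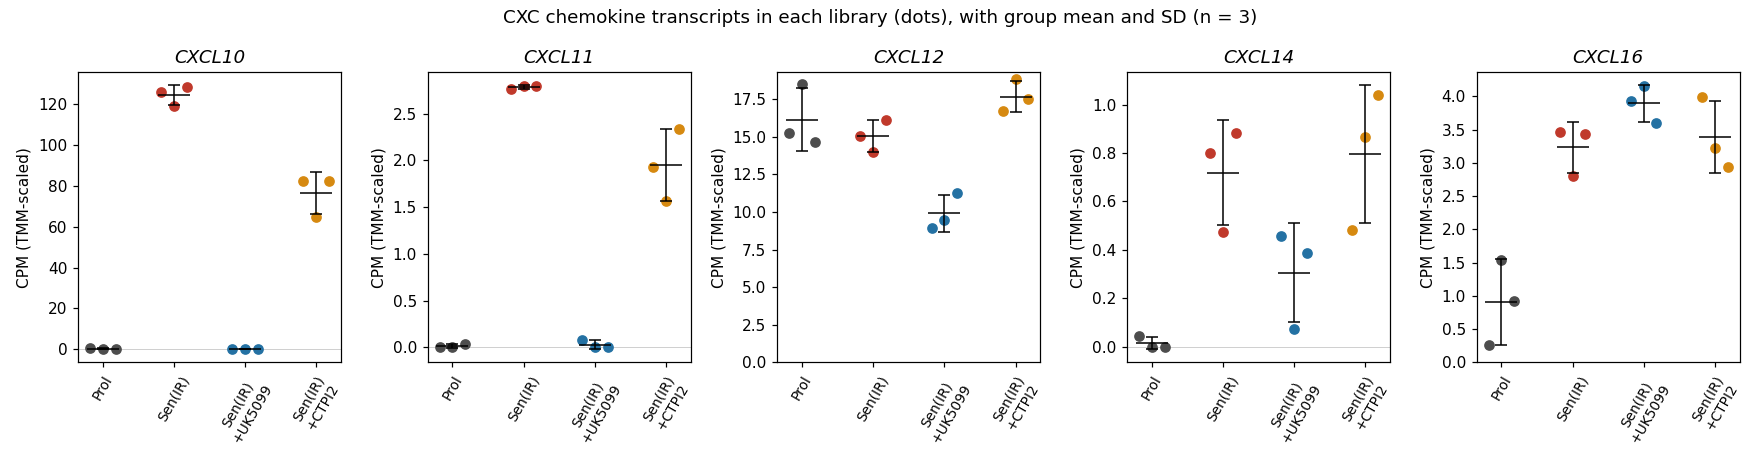
Level of each chemokine in CPM (linear axis, a separate scale per gene) in the 12 libraries by group; dots are libraries, the horizontal mark is the group mean and the bar its SD (n = 3). CXCL10 and CXCL11 are near zero in Prol and Sen(IR)+UK5099, CXCL12 is lowest with UK5099 (8.94 to 11.3 CPM), and CXCL16 is lowest in Prol (0.256 to 1.55 CPM).

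CXCL12, the homeostatic CXCR4 ligand, differed little between proliferating and senescent cells. It stood at 15.2, 18.5 and 14.6 CPM in Prol and at 15.0, 14.0 and 16.1 CPM in Sen(IR). With UK5099 the libraries read 8.94, 9.49 and 11.3 CPM, all below every library of the other groups. With CTPI2 they read 16.7, 18.8 and 17.5 CPM, above the Sen(IR) range and overlapping Prol.

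CXCL14 was close to the detection floor throughout. Its counts were 1, 0 and 0 in Prol, 18, 10 and 18 in Sen(IR), 11, 2 and 10 with UK5099, and 11, 21 and 24 with CTPI2. In CPM these were 0.801, 0.474 and 0.883 in Sen(IR), 0.455, 0.0742 and 0.388 with UK5099, and 0.482, 0.867 and 1.04 with CTPI2. All 3 UK5099 libraries lay below the lowest Sen(IR) library, the highest of them only just, and the CTPI2 libraries overlapped Sen(IR).

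CXCL16, the transmembrane CXCR6 ligand, was low in every group. It read 0.256, 1.55 and 0.929 CPM in Prol (6 to 36 counts), the widest relative spread among the groups for this gene. It read 3.47, 2.80 and 3.43 CPM in Sen(IR), 3.93, 4.15 and 3.60 CPM under UK5099, and 3.99, 3.22 and 2.94 CPM with CTPI2. All 9 irradiated libraries lay above the 3 Prol libraries, and the UK5099 libraries lay above those of Sen(IR) without overlap.

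The first comparison asked which of these chemokines changed as fibroblasts became senescent after irradiation. CXCL10, CXCL11, CXCL14 and CXCL16 were higher in Sen(IR) than in Prol, and CXCL12 was not called in either direction. A gene was called when the adjusted p was under 0.05 in the edgeR quasi-likelihood test (Benjamini-Hochberg over the 16251 genes tested) and the absolute log2 fold change was over 0.5. The count was thus 4 of 5 higher and 0 lower, where 24.8% of all genes tested were called higher and 22.4% lower.

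CXCL10 rose by a log2 fold change of 9.04 (SE 0.180, edgeR adjusted p = 8.39e-21). Its fold rests on 17 counts over the Prol libraries, and without Prol 1 the log2 fold change was 9.75. For CXCL11 the summed counts, scaled for library size, were 205 times higher in Sen(IR) (95% exact interval 36.3 to 8139, counting error only, as for all intervals of summed counts here; edgeR adjusted p = 2.06e-10). Without Prol 3, which held the single count of that group, CXCL11 was at least 21.7-fold higher in Sen(IR), set against the floor of 3 counts per library. CXCL14 was 53.0 times higher in summed counts (interval 9.04 to 2137; edgeR adjusted p = 1.72e-05), and without Prol 1 it was at least 5.99-fold higher. CXCL16 rose by a log2 fold change of 1.82 (SE 0.305, edgeR adjusted p = 1.55e-05). For CXCL12 the log2 difference was -0.10, with a 95% interval from -0.32 to 0.12 (edgeR adjusted p = 0.412).

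UK5099 was then compared with untreated Sen(IR) cells, which are also the first group of the comparison above, so these comparisons are not independent. CXCL10, CXCL11 and CXCL12 were lower with UK5099, whereas CXCL14 and CXCL16 were not called. That is 3 of 5 lower and 0 higher, where 12.1% of all genes tested were called lower and 8.76% higher. CXCL10 fell by 9.10 on the log2 scale (SE 0.180, edgeR adjusted p = 1.28e-20), a change that rests on 17 counts over the UK5099 libraries. CXCL11 was 107 times higher in Sen(IR) in summed counts (interval 29.2 to 891; edgeR adjusted p = 9.80e-10), and at least 24.5-fold higher without UK5099 replicate 1, the library with its 2 counts. The decline of CXCL12 was smaller, at -0.60 on the same scale (SE 0.109, edgeR adjusted p = 0.000102).

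CXCL14 had a log2 difference of -1.24 (95% interval -2.31 to -0.18, edgeR adjusted p = 0.0526), and it was called without Sen(IR) replicate 2 (-1.47, edgeR adjusted p = 0.0387) or without UK5099 replicate 1 (-1.63, adjusted p = 0.0355). Other single-library omissions weakened it, to as little as -0.77, with an edgeR adjusted p of up to 0.227. CXCL16 had a log2 difference of 0.27 (95% interval -0.24 to 0.78, edgeR adjusted p = 0.395), so the separation of its libraries did not pass the test.

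**Figure D2:**
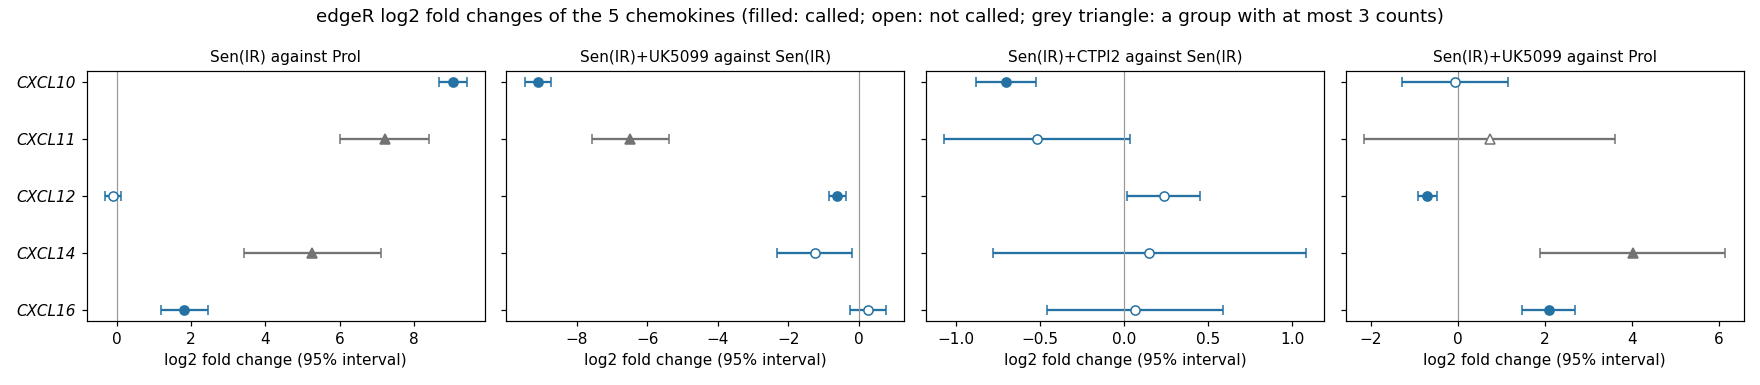
edgeR log2 fold change (x axis, first group over second; a separate scale per panel) with its 95% interval for the 5 chemokines in 4 comparisons; filled marks were called, open marks were not, and grey triangles involve a group with at most 3 counts per library, where the fitted value depends on the prior count. CXCL10 is at 9.04 after irradiation, at -9.10 with UK5099 and at -0.70 with CTPI2, and CXCL12 lies left of zero in both UK5099 panels.

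With CTPI2, CXCL10 was lower than in Sen(IR), and none of the other 4 was called. This was 1 of 5 lower and 0 higher, where 0.148% of all genes tested were called lower and 0.0185% higher, 27 genes in all. CXCL10 fell by 0.70 on the log2 scale (SE 0.0859, edgeR adjusted p = 6.36e-05), lower in 3 of 3 libraries than any Sen(IR) library. The CXCL11 difference was -0.52 (95% interval -1.07 to 0.04, edgeR adjusted p = 0.732), an interval that includes the change of CXCL10. For CXCL12 it was 0.23 (0.02 to 0.45, unadjusted p = 0.036, edgeR adjusted p = 0.635), for CXCL14 0.15 (-0.78 to 1.08, edgeR adjusted p = 0.976) and for CXCL16 0.06 (-0.46 to 0.59, edgeR adjusted p = 0.985).

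The treatments were also compared directly as they were given, at doses that differ and with no matched dose. CXCL10, CXCL11, CXCL12 and CXCL14 were lower with UK5099 than with CTPI2, 4 of 5 lower and 0 higher, where 11.7% of all genes tested were called lower and 8.2% higher. CXCL10 was lower, with a log2 difference of -8.40 (SE 0.186, edgeR adjusted p = 1.31e-19) and CXCL12 by -0.84 (SE 0.107, adjusted p = 1.34e-06). CXCL11 was 74.6 times higher with CTPI2 in summed counts (interval 20.3 to 622; edgeR adjusted p = 9.64e-09), and at least 17.1-fold higher without UK5099 replicate 1. CXCL14 differed by -1.39 (SE 0.499, edgeR adjusted p = 0.0276), a call that was lost without UK5099 replicate 2 (-0.91, adjusted p = 0.139), CTPI2 replicate 2 (-1.32, adjusted p = 0.0727) or CTPI2 replicate 3 (-1.16, adjusted p = 0.110). CXCL16 differed by 0.20 (95% interval -0.30 to 0.71, edgeR adjusted p = 0.524).

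The UK5099-treated senescent cells were also set against proliferating cells. CXCL14 and CXCL16 were higher than in Prol and CXCL12 was lower, 2 of 5 higher and 1 lower, where 26.9% of all genes tested were called higher and 26.2% lower, so the number called was near the overall share. CXCL16 was 2.09 higher in log2 units (SE 0.293, edgeR adjusted p = 1.18e-06), while CXCL12 was lower at -0.70 (SE 0.107, adjusted p = 4.27e-06). CXCL14 was 22.0 times higher in summed counts (interval 3.58 to 907), and without Prol 1 at least 2.54-fold higher. The CXCL10 difference was -0.06, with a wide 95% interval from -1.29 to 1.17 (edgeR adjusted p = 0.929), and CXCL11 was at the floor in both groups, so no fold is given.

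The CTPI2-treated cells remained above Prol for the same 4 chemokines as untreated Sen(IR) cells, 4 of 5 higher and 0 lower, where 24.8% of all genes tested were called higher and 21.9% lower. CXCL10 was higher by a log2 fold change of 8.34 (9.04 without Prol 1) and CXCL16 by 1.89, and CXCL12 differed by 0.13 (edgeR adjusted p = 0.249). In summed counts CXCL11 was 143 times higher (interval 25.2 to 5681; at least 15.2-fold without Prol 3) and CXCL14 was 58.8 times higher (interval 10.1 to 2363; at least 6.62-fold without Prol 1).

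Levels of different genes were compared per kilobase of exon (CPM per kb). In Prol the leading transcript was CXCL12, at 2.63 ± 0.343 CPM per kb (SD, n = 3), followed by CXCL16 at 0.326 and CXCL10 at 0.203, whose libraries overlapped, and then by CXCL14 and CXCL11 at the floor. In Sen(IR), CXCL10 led at 106 ± 4.17 CPM per kb, followed by CXCL12 at 2.45, CXCL11 at 1.56, CXCL16 at 1.16 and CXCL14 at 0.364, with no overlap between neighbours in that order. With UK5099, CXCL12 at 1.61 ± 0.199 and CXCL16 at 1.40 ± 0.0990 CPM per kb overlapped at the top, although CXCL12 was the higher of the pair in 3 of 3 libraries. Below them, CXCL10 at 0.190 and CXCL14 at 0.155 overlapped as well. With CTPI2, CXCL10 led at 65.0 ± 8.69 CPM per kb, followed by CXCL12 at 2.88, and CXCL16 at 1.21 overlapped CXCL11 at 1.09.

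The 12 remaining CXC ligands on the list put these levels in proportion. The summed level of all 17 listed CXC ligands was 5.33 ± 0.101 CPM per kb in Prol, 635 ± 5.45 in Sen(IR), 6.03 ± 0.410 with UK5099 and 317 ± 46.9 with CTPI2 (SD, n = 3). The 5 chemokines made up 51.5% to 70.8% of that sum in the Prol libraries and 16.7% to 17.9% in the Sen(IR) libraries. With UK5099 they made up 50.1% to 59.5%, and with CTPI2 21.1% to 23.2%. CXCL12 alone was 49.3% ± 6.79 of the sum in Prol and 0.386% ± 0.0256 in Sen(IR), although its level was similar in both groups. With UK5099 the sum was again small, and CXCL16 supplied 23.2% ± 1.18 of it against 6.09% ± 4.34 in Prol.

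**Figure D3:**
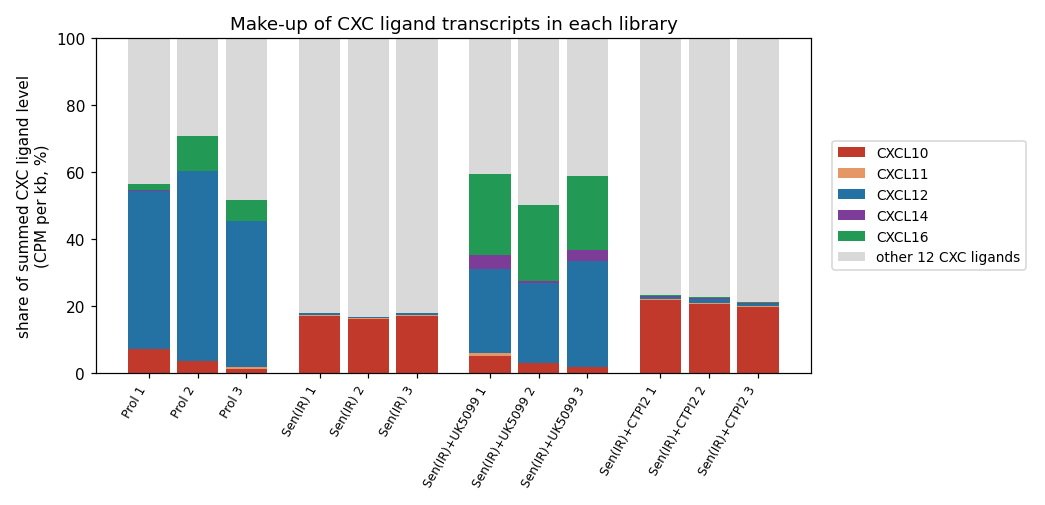
Share of each chemokine (percent, stacked) in the summed CPM per kb of 17 CXC ligands, 1 bar per library; grey is the other 12 ligands together. CXCL12 is the main coloured band in Prol, CXCL10 is almost the whole coloured part in Sen(IR) and Sen(IR)+CTPI2, and CXCL12 and CXCL16 share it with UK5099.

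Of those other 12 ligands 6 were tested, namely the neutrophil-attracting CXCL1, CXCL2, CXCL3, CXCL5, CXCL6 and CXCL8. All 6 were higher in Sen(IR) than in Prol and all 6 were lower with UK5099 than in Sen(IR), where 24.8% and 12.1% of all genes tested were. CXCL2 and CXCL6 were below the minimum of the filter (0.423 CPM) in every Prol and UK5099 library. CXCL3 was below it in every Prol library and CXCL1 in every UK5099 library. CXCL2 and CXCL6 thus passed only through the groups in which they were high, so these counts are a description. With CTPI2, CXCL1, CXCL3, CXCL5, CXCL6 and CXCL8 were lower than in Sen(IR), with log2 fold changes from -1.35 to -1.05, and CXCL2 was at -0.80 without being called. Their median log2 fold change was 7.70 after irradiation, -7.13 with UK5099 and -1.08 with CTPI2, where the medians over all genes tested were 0.01, 0.01 and 0.00.

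Genes with the most similar profiles were sought among all genes tested, by the smallest root mean square difference over the 12 libraries, which includes the differences between groups. The values compared were log2 of CPM plus 0.5, centred for each gene. That added 0.5 is above the mean levels of CXCL10, CXCL11 and CXCL14 in Prol and with UK5099. It therefore flattens their profiles, most of all that of CXCL14, which was low in every group. CXCL10 was closest to CXCL8 (0.425), complement C3 (0.595) and CXCL1 (0.611). CXCL11 was closest to OLR1 (0.136), which encodes a scavenger receptor for oxidized lipoprotein, then to NFKBIZ (0.166) and ZC3H12A (0.199). CXCL12 was closest to DTX4 (0.0944), TP53RK (0.113) and NCK1 (0.114). CXCL14 was closest to ITGB1-DT (0.178), TNS1 (0.186) and LAMA5 (0.193), and CXCL16 to CYS1 (0.190), ACOX2 (0.194) and TMEM150A (0.200). Profiles that vary little over the libraries lie close to many genes, so these distances are not comparable between the 5 chemokines.

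The receptors CXCR3, CXCR4 and CXCR6 were almost absent from the RNA of the fibroblasts. CXCR3, the receptor of CXCL10 and CXCL11, had at most 1 count in any library, CXCR4 at most 6 and CXCR6 at most 11, and none of the 3 passed the filter. ACKR3, the scavenging receptor that binds CXCL11 and CXCL12, was tested. It averaged 6.24 CPM in Prol and 4.06 in Sen(IR), 1.44 CPM under UK5099 and 5.32 under CTPI2. It fell by 0.62 on the log2 scale after irradiation (SE 0.169, edgeR adjusted p = 0.00254) and was lower again under UK5099 than in Sen(IR), at -1.48 (SE 0.205, edgeR adjusted p = 3.55e-06), and with CTPI2 it had a log2 difference of 0.39 (edgeR adjusted p = 0.624).

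Among the proteases that act on these ligands, DPP4, which trims the amino terminus of CXCL10, CXCL11 and CXCL12, changed most. Its mean was 256 CPM in Prol and 1574 in Sen(IR), 433 CPM under UK5099 and 1355 under CTPI2. It rose by a log2 fold change of 2.62 in Sen(IR) (SE 0.0805, edgeR adjusted p = 8.84e-18) and fell by 1.86 with UK5099 (SE 0.0780, edgeR adjusted p = 1.09e-14). With CTPI2 its log2 difference was -0.22 (edgeR adjusted p = 0.413). ADAM17, which sheds membrane proteins and can release CXCL16, rose by 0.94 in Sen(IR) (edgeR adjusted p = 1.18e-11). Its log2 difference of 0.22 with UK5099 (edgeR adjusted p = 0.00603) was not called because of the fold limit. With CTPI2 the difference was -0.02 (edgeR adjusted p = 0.975), also not called. ADAM10, the main constitutive sheddase of CXCL16, and MMP2, which cleaves CXCL12, were not called in these 3 comparisons. For ADAM10 the fold limit decided this in the first 2 of them. Its log2 difference was 0.47 after irradiation (edgeR adjusted p = 4.2e-08) and -0.33 with UK5099 (edgeR adjusted p = 2.37e-05). In the protease list 2 of 4 were thus higher after irradiation (24.8% of all genes tested), 1 of 4 was lower with UK5099 (12.1% of all genes tested) and 0 of 4 were called with CTPI2 (edgeR, where 2 of 4 had an unadjusted p under 0.05). The medians were 0.71, -0.23 and -0.08. An unadjusted edgeR p under 0.05 was met by 3 of 4 after irradiation and by 4 of 4 with UK5099.

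The interferon-stimulated genes, a list of 19 of which 17 were tested, showed how far other genes of the interferon response moved alongside CXCL10 and CXCL11. In Sen(IR) against Prol, 15 of 17 were higher and 1 was lower (24.8% and 22.4% of all genes tested), with a median log2 fold change of 2.61. OAS2, an antiviral oligoadenylate synthetase, rose by 6.81, RSAD2 (viperin) by 4.72 and IFI44L by 4.67, and OAS1 went from 0.0410 to 6.03 CPM. The single member that was lower was GBP1, a guanylate-binding protein, at -0.88 (edgeR adjusted p = 4.09e-11). With UK5099 all 17 were lower than in Sen(IR) (12.1% of all genes tested), with a median of -3.44, which stayed the same when genes with at most 3 counts per library were put at their bound. OAS1 and RSAD2 were below the minimum of the filter in every Prol and UK5099 library, so they passed only through the groups in which they were high. OAS1 went from 6.03 to 0.0523 CPM, and the largest fitted falls after it were IFI44L at -5.38, RSAD2 at -4.96 and OAS2 at -4.93. Against Prol, the UK5099-treated cells had 4 of 17 higher and 4 of 17 lower, near the 26.9% and 26.2% of all genes tested, with a median of -0.11 (-0.10 with low-count genes at their bound). The higher ones were OAS2 at 1.87, IFIT2 at 1.65, MX1 at 0.75 and IFI6 at 0.64, and the lower ones were OAS3 at -3.52, GBP1 at -2.76, IFIT1 at -2.21 and OASL, which went from 0.573 to 0.0635 CPM. With CTPI2 2 of 17 were lower and 0 higher (0.148% and 0.0185% of all genes tested). These were MX1 at -0.56 (edgeR adjusted p = 0.0428) and IFI6 at -0.68 (edgeR adjusted p = 0.00286). The median was -0.48, and 13 of 17 had an unadjusted edgeR p under 0.05. The Sen(IR) libraries themselves spread widely for some of these genes, MX1 from 62.2 to 107.7 CPM and OAS2 from 19.9 to 37.9 CPM. The CTPI2 libraries lay below those of Sen(IR) for MX1 and IFI6 but overlapped them for OAS2 and OAS3, among others. The genes were measured in the same libraries, so the 13 are not independent. How far the CTPI2 values of this list rest on 1 Sen(IR) library was not tested.

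Of 14 interferon signalling genes 13 were tested. In Sen(IR) 8 of 13 were higher and none was lower (24.8% and 22.4% of all genes tested), with a median of 0.68, among them IFNGR1 at 1.03, IRF9 at 1.01 and IFNAR1 at 1.00. With UK5099, IRF1 at -1.16 and IRF7 at -1.28 were the only 2 called, both lower (12.1% of all genes tested), and the median was -0.23. An unadjusted edgeR p under 0.05 was met by 8 of 13, so not being called does not mean unchanged. With CTPI2 0 of 13 were called by edgeR (1 had an unadjusted p under 0.05), and the median was -0.05. IFNB1, which encodes interferon beta, had at most 3 counts in any library and was not tested.

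**Figure D4:**
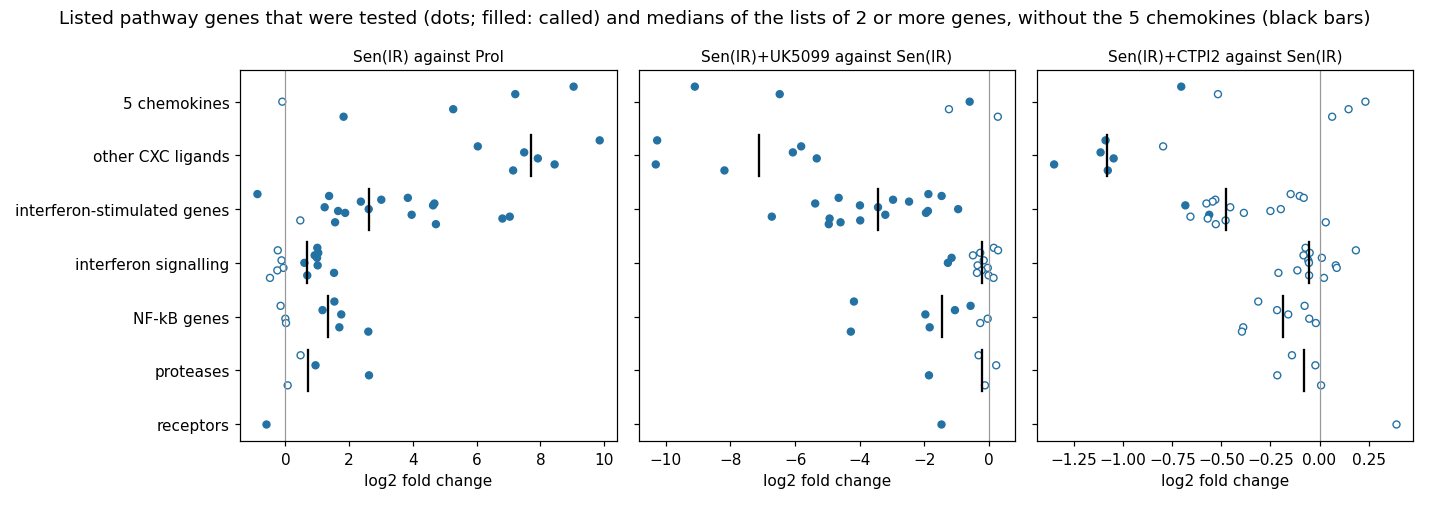
edgeR log2 fold change (x axis, a separate scale per panel) of each tested gene of the lists in the 3 main comparisons; dots are genes, filled when called, and black bars are medians of the lists of 2 or more genes other than the 5 chemokines. The median of the interferon-stimulated genes is 2.61 after irradiation, -3.44 with UK5099 and -0.48 with CTPI2.

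All 8 NF-kB genes were tested, and 5 were higher in Sen(IR) and none was lower (24.8% and 22.4% of all genes tested), with a median of 1.35. These were the feedback inhibitor TNFAIP3 (A20) at 2.60, NFKBIA (inhibitor of NF-kB alpha) at 1.75, RELB at 1.69, BIRC3 at 1.53 and NFKB2 at 1.16. With UK5099 6 of 8 were lower (12.1% of all genes tested), with a median of -1.45, led by TNFAIP3 at -4.28 and BIRC3 at -4.18. RELA and REL, which encode subunits of the factor, were not called in either comparison. For RELA with UK5099 the fold limit decided this, at -0.28 (edgeR adjusted p = 0.000479). With CTPI2 0 of 8 were called by edgeR (4 had an unadjusted p under 0.05), and the median was -0.19. TNFAIP3 with CTPI2 was at -0.40 (edgeR adjusted p = 0.0176), so there too the fold limit decided. In these 3 comparisons the CXCL10 change had the sign of the medians of the interferon-stimulated and NF-kB lists. The medians of the interferon signalling, protease and other CXC ligand lists had the same signs, so the shared sign was not particular to those lists. The part of any of them in the CXCL10 level was not tested.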

How the data were processed

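The series held 12 paired-end RNA-seq libraries of MRC5 fibroblasts, and the deposited table gave raw counts per gene. Per the labels, the authors used Trimmomatic 0.36 for trimming, STAR 2.5.2b for alignment (GRCh38) and featureCounts of Subread 1.5.2 for the deposited counts, which counted unique reads in exons per the methods and by strand only if the kit was strand-specific, which is not stated. Library groups and numbers came from the sample titles.

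Counts were tested with edgeR 4.0.16 in R 4.3.3: filterByExpr over the 4 groups, TMM scaling, 1 quasi-likelihood fit of all 12 libraries and Benjamini-Hochberg adjustment over 16251 genes. SE is the absolute log2 fold change divided by the square root of F. DESeq2 1.42.0, other scalings, no filter, other limits, only the compared groups, leaving out each library, and other gene lengths were alternatives. The script was tested on simulated data. Exon lengths came from GENCODE v44, promoter windows from RefSeq. Library totals ranged from 20597736 to 28245693 counts, so 3 counts, the floor, is 0.111 to 0.147 CPM. Of the 57500 genes, 23043 had no count. The main fit did not pair libraries by replicate number. Deviations of same-numbered libraries correlated between -0.094 and 0.061. Differently numbered libraries were not compared in this way, so whether the numbers mark a shared culture or run was not tested.

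The members and lists were chosen with earlier results of these data known. Named are all members, genes of counts up to 5, the 2 to 4 most changed called genes of lists with over 6 tested genes, and the 3 most similar genes. One gene of the interferon signalling list that this rule would name is not reported here.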

Additional observations from a re-analysis of the deposited data

Results flagged for a closer look

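For 4 of the 5 chemokines the change with UK5099 differed from the change with CTPI2, both taken against the same Sen(IR) libraries, in a direct test of one treatment against the other (edgeR adjusted p as given with that comparison). The UK5099 change minus the CTPI2 change was -8.40 on the log2 scale for CXCL10, -5.96 for CXCL11 (a fitted value that depends on the prior count), -0.84 for CXCL12 and -1.39 for CXCL14, the last being the call that 3 of the single-library omissions ended. For CXCL12, the UK5099 change was a called fall of -0.60 and the CTPI2 difference of 0.23 was not called. The doses of the compounds differed, so these values describe the treatments as given and not the targets.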

How the results depend on the processing

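The number of chemokines called stayed within 1.5 times its value under every alternative run, except that at a fold limit of 1 (log2) the count for CTPI2 against Sen(IR) went from 1 to 0. That limit also ended the 3 calls of CXCL12 in the comparisons of UK5099 with Sen(IR), CTPI2 and Prol. With the replicate number as a replicate block the counts were 4, 3, 1, 4, 3 and 4 in the order of the report, and no call changed. With 1 library left out the count ranged from 3 to 4 for UK5099 against Sen(IR) and from 3 to 4 for UK5099 against CTPI2, both through CXCL14. CXCL14 with UK5099 against Sen(IR) was also called in a fit of those 2 groups alone (edgeR adjusted p = 0.0422) and at an unadjusted p under 0.05. Over leaving out single libraries its log2 difference ranged from -1.63 to -0.77.

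Differences that were not called changed sign in 10 fits. With upper-quartile scaling CXCL12 in Sen(IR) against Prol was 0.0220 and CXCL10 in UK5099 against Prol was 0.0744, where that scaling moved the median of all genes tested by 0.12 and 0.14. With 1 library left out, the latter ranged from -0.53 to 0.64 (0.64 without Prol replicate 1, 0.24 without UK5099 replicate 3), CXCL12 in Sen(IR) against Prol from -0.17 to 0.0113, CXCL14 and CXCL16 in CTPI2 against Sen(IR) from -0.0839 to 0.40 and from -0.0690 to 0.15 (-0.0759 and -0.0294 without Sen(IR) replicate 2), and CXCL11 in UK5099 against Prol from -1.84 to 2.56. The cause was not tested. Over all genes tested, the calls for CTPI2 against Sen(IR) numbered 27, and 296 at an unadjusted p under 0.05, 11 at a fold limit of 1 (log2), 46 without the filter on low counts and 79 without a fold limit. In the order of the report, the calls numbered 7677, 3386, 27, 3236, 8632 and 7599, and 4030, 1511, 11, 1417, 4967 and 4028 at a fold limit of 1. For UK5099 against Sen(IR) and against CTPI2 they numbered 7384 and 7227 without a fold limit.

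Depth limits CXCL11 and CXCL14, whose lowest groups held 1 to 2 counts in all, and makes the folds of CXCL10 depend on 17 counts in each low group. The order per kilobase was the same with the longest transcript in place of the exon union for all member pairs but CXCL11 and CXCL14 in Prol. That check covered the order of the group means only. Overlaps between libraries and shares of the CXC sum were given for the exon union alone, and they depend on the length used. CXCL12 has 6143 bases in the union and 3532 in its longest transcript, and CXCL16 has 2793 and 2324.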

Other observations

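CXCL9, the third interferon-inducible CXCR3 ligand, did not follow CXCL10 and CXCL11 to a testable level. It had at most 3 counts in any Sen(IR) library and at most 9 in any CTPI2 library, and it did not pass the filter. IDO1, another interferon-induced gene below the filter, had 24 counts over the Sen(IR) libraries, 24 over the CTPI2 libraries, 2 over Prol and 0 over the UK5099 libraries. CXCL13, a ligand of CXCR5, had 0 counts in every library, under the floor of 3 counts per library.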
